A study of Homo sapiens with 9 samples.

Results

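The HOX genes encode homeodomain transcription factors and lie in 4 clusters, HOXA on chromosome 7, HOXB on chromosome 17, HOXC on chromosome 12 and HOXD on chromosome 2. Members were the GENCODE entries of the count table whose symbol is HOX, a cluster letter and a number. The rule found 40 entries with 39 symbols, HOXC4 being listed under 2 identifiers, among 112171 features in the table. Of the 40 entries, 25 had enough counts to be tested, 12 had some counts but too few, and 3 had a total of 0. The table came from total RNA of PANC-1, an established cell line of human pancreatic ductal carcinoma that every group kept in hypoxia for 12 h. Each of the 3 groups had 3 libraries, and they differed in what the medium held: rakicidin A at 42 nM, BE-43547A1 at 41 nM, or DMSO alone at 0.04%. Both compounds are cyclic lipodepsipeptides made by bacteria. Their doses differed slightly, and how much DMSO came with each compound is not stated. All libraries are hypoxic, so none shows the HOX genes in normal oxygen. The labels do not tie the replicates to separate cultures. The p-values therefore reflect only how these libraries vary, and that variation may be technical.

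HOX proteins bind DNA with a homeodomain, often together with PBX and MEIS proteins, and give cells along the head to tail axis of the embryo their positional identity. Genes at the 3′ end of a cluster (low numbers) are switched on first and act in anterior regions, and those at the 5′ end (high numbers) act later and farther back. Genes with the same number in different clusters are paralogues. In adult and tumour cells Polycomb proteins keep silent HOX genes off and Trithorax proteins keep active ones on, so a cell line carries a stable set of active HOX genes.

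The rakicidin A libraries held 26203326 to 34870860 counts on features, the BE-43547A1 libraries 39807220 to 45048999 and the DMSO libraries 27696394 to 30596594. HOX genes are minor transcripts here. As counts scaled to a common library total (CPM), they summed to 277 ± 10.1 with rakicidin A, 257 ± 7.93 with BE-43547A1 and 444 ± 48.2 with DMSO (mean ± SD, n = 3 libraries each). Levels below are CPM with TMM scaling between libraries, averages are given ± SD over 3 libraries and log2 fold changes ± their standard error, and a call means an edgeR quasi-likelihood p below 0.05 after Benjamini-Hochberg adjustment over 22353 features. DMSO replicate 3 stood apart from the other DMSO libraries. Over features, a chi-square statistic per degree of freedom was 19.96 and 18.07 for its pairs with them, against 7.42 between those 2 libraries. Markers of epithelial and duct cells summed to 2520 to 2630 CPM with rakicidin A, 3470 to 3740 CPM with BE-43547A1 and 2930 to 3110 CPM with DMSO, with KRT8, KRT18 and KRT19 the highest, and 8 of these 10 markers were tested. Summed acinar and islet markers did not exceed 0.129 CPM in any library. INS was at 0 in all of them, and no marker of that list was tested. Of 6 leukocyte markers 3 were tested, CD3E was at 0 and PTPRC was close to 0. Their sum was 2.43 to 2.88 CPM with rakicidin A and 3.61 to 4.43 CPM with BE-43547A1, against 1.68 to 2.13 CPM with DMSO. Fibroblast and endothelial markers summed to 5.89 to 7.65 CPM with rakicidin A and 7.42 to 9.60 CPM with BE-43547A1, against 9.89 to 13.8 CPM with DMSO. The part of these markers in the HOX results was not tested. In such bulk RNA, fewer cells with a transcript and less of it per cell cannot be told apart.

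The first question was which HOX genes PANC-1 cells express and how each compound changed them. Nearly all tested HOX genes fell with either compound, while HOXB9 rose. With rakicidin A all 25 tested genes were called, where 64.7% of all tested features were: 23 passed as lower, against 32.7% of features, and 2 as higher, against 31.9%. With BE-43547A1 all 25 were again called, against 70.4% of features, with 23 lower (35.1% of features) and 2 higher (35.3%). HOXA6, HOXA10, HOXA11, HOXC4 and HOXD3 reached the count filter only through the DMSO libraries, so against DMSO they could hardly pass as higher. They are among the 23. Without the filter, 25 of the 37 entries with any count were lower with rakicidin A and 2 higher, against 11.6% and 10.7% of features. Changes of at least 2-fold were found for 19 lower genes (13.8% of features) and 1 higher gene (14% of features) with rakicidin A. With BE-43547A1 they were found for 18 lower genes (14.1%) and 0 higher genes (17.5%). The median log2 fold change of the 25 genes was -1.56 with rakicidin A, against -0.02 over all tested features, and -1.28 with BE-43547A1, against -0.000256. The rakicidin A median was the same with HOXA10, at 0 counts in that group, set to its bound. No tested gene was at 0 counts with BE-43547A1. With library totals in place of TMM the median of all features was -0.38 with rakicidin A and -0.24 with BE-43547A1, and that of the HOX genes was -1.91 and -1.52. Leaving out any 1 library, DMSO replicate 3 included, gave 23 lower and 2 higher in both comparisons. In each of these calls every treated library lay on the same side of every DMSO library. The share of all features that separate in this way was not determined, so the separation is not shown to be particular to HOX genes. The comparisons share the DMSO libraries, so they are not independent of each other.

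**Figure D1:**
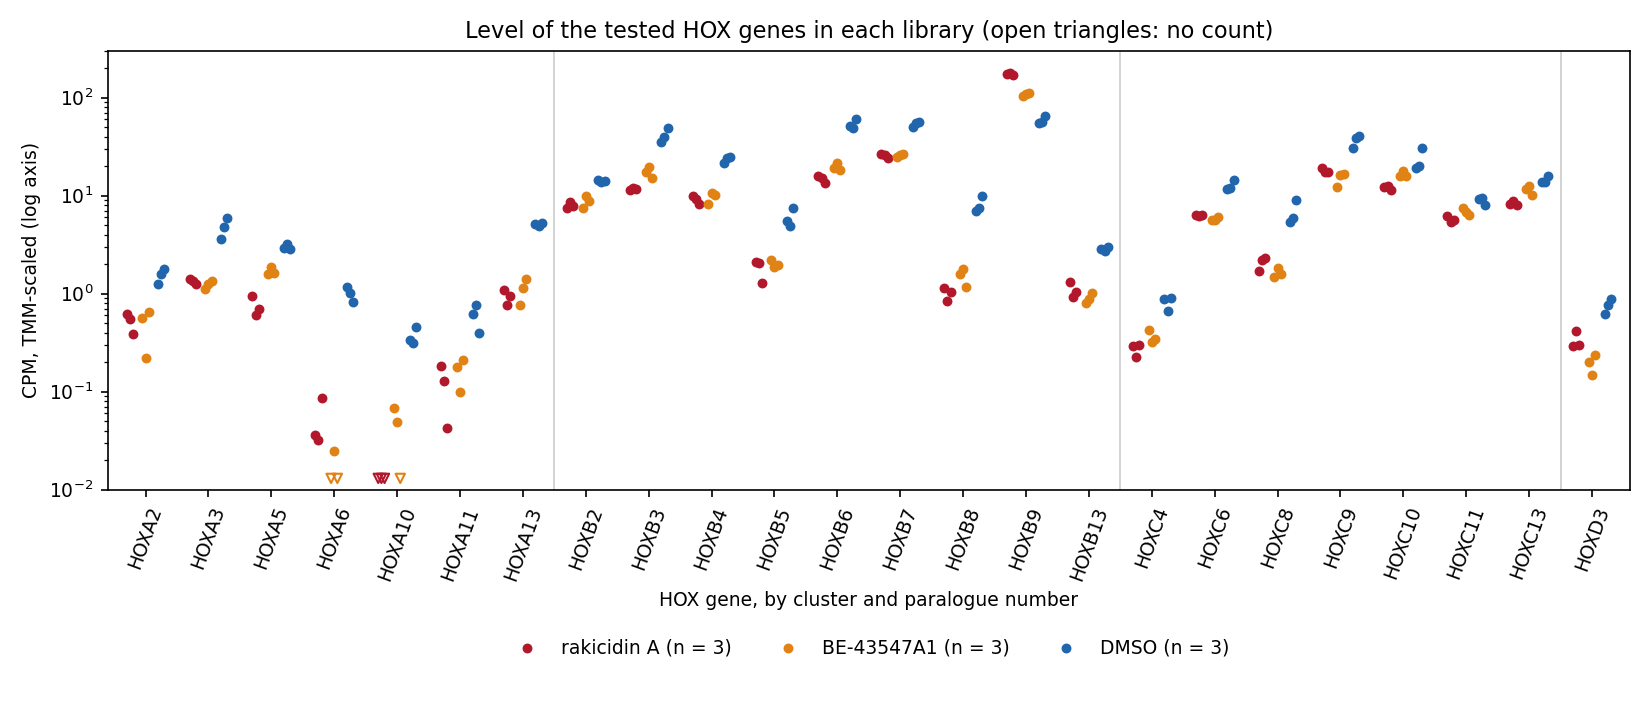
TMM-scaled CPM on a log axis for 24 of the 25 tested HOX genes, ordered by cluster and paralogue number; each point is 1 library (3 per group, rakicidin A left, BE-43547A1 middle, DMSO right) and open triangles mark libraries with no count. The treated points lie below the DMSO points for 23 genes and above them for HOXB9, a separation not counted over all features. HOXB9 with rakicidin A, at 169 to 179 CPM, is the highest.

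HOXB held the most abundant HOX genes. HOXB9, a gene that in the mouse patterns the thoracic skeleton, had 173.8, 179.2 and 169.3 CPM in the rakicidin A libraries and 104.3, 109.8 and 112.3 CPM in the BE-43547A1 libraries, against 55.3, 56.2 and 64.1 CPM in the DMSO libraries. The 3 groups did not overlap, and rakicidin A gave the highest level. The log2 fold change against DMSO was 1.57 ± 0.06 with rakicidin A (edgeR adjusted p = 1.02e-13) and 0.89 ± 0.06 with BE-43547A1 (adjusted p = 3.49e-10). With library totals in place of TMM the rise of HOXB9 was 1.21 and 0.65. Because both genes of a ratio come from the same library, ratios need no scaling between libraries. HOXB7 and HOXB8 fell with both compounds, so ratios to them also reflect those falls and do not measure the rise of HOXB9 alone. HOXB9 counts were 6.86 ± 0.250 times those of HOXB7 with rakicidin A and 4.23 ± 0.0316 times with BE-43547A1, against 1.10 ± 0.0596 times with DMSO (n = 3 each). The neighbour HOXB8 gave 178 ± 33.0, 74.5 ± 18.3 and 7.37 ± 0.763 for the same ratio in these groups. In CPM per kb of exon, HOXB9 stood at 67.5 ± 1.92 with rakicidin A, 42.15 ± 1.59 with BE-43547A1 and 22.7 ± 1.88 with DMSO.

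HOXB8, which in mouse experiments holds myeloid precursors in a dividing state, lay at 1.13, 0.831 and 1.03 CPM with rakicidin A and at 1.57, 1.78 and 1.18 CPM with BE-43547A1, against 6.91, 7.42 and 9.83 CPM with DMSO. It changed by -3.02 ± 0.19 with rakicidin A (edgeR adjusted p = 1.03e-10) and -2.41 ± 0.17 with BE-43547A1 (adjusted p = 3.24e-10) on the log2 scale, the steepest fall in this cluster with either compound, and every treated library lay well below the lowest DMSO library. HOXB7, which is often raised in carcinomas, reached 26.5, 25.6 and 24.1 CPM after rakicidin A, 24.9, 25.99 and 26.4 CPM after BE-43547A1 and 49.5, 54.6 and 56.1 CPM after DMSO. Both compounds gave nearly the same level of HOXB7, less than 50% of that in DMSO, with log2 fold changes of -1.07 ± 0.07 with rakicidin A (edgeR adjusted p = 8.14e-11) and -1.05 ± 0.07 with BE-43547A1 (adjusted p = 7.23e-11). HOXB6 had 15.7, 14.9 and 13.4 CPM in the rakicidin A libraries and 19.3, 21.4 and 18.1 CPM in the BE-43547A1 libraries, against 51.6, 48.99 and 60.7 CPM in the DMSO libraries. Its treated groups did not overlap each other either, and it changed by -1.87 ± 0.09 with rakicidin A (edgeR adjusted p = 1.79e-12) and -1.46 ± 0.09 with BE-43547A1 (adjusted p = 3.24e-11).

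HOXB3 lay at 11.3, 11.96 and 11.6 CPM with rakicidin A and at 17.6, 19.5 and 15.1 CPM with BE-43547A1, against 35.3, 39.1 and 49.3 CPM with DMSO. DMSO replicate 3 was the highest of all, and without it the fall of HOXB3 was -1.68 and -1.11, against -1.82 ± 0.11 with rakicidin A and -1.25 ± 0.11 with BE-43547A1 with it (adjusted p = 7.17e-11 and 5.89e-09). HOXB4, known for expanding blood stem cells when overexpressed, reached 9.86, 9.18 and 8.16 CPM after rakicidin A, 8.25, 10.5 and 10.2 CPM after BE-43547A1 and 21.6, 24.1 and 24.5 CPM after DMSO. The treated groups overlapped each other and lay below DMSO, at -1.36 ± 0.10 with rakicidin A (edgeR adjusted p = 9.21e-10) and -1.28 ± 0.10 with BE-43547A1 (adjusted p = 1.14e-09). HOXB5 had 2.11, 2.05 and 1.29 CPM in the rakicidin A libraries and 2.18, 1.88 and 1.96 CPM in the BE-43547A1 libraries, against 5.53, 4.86 and 7.50 CPM in the DMSO libraries, and changed by -1.70 ± 0.19 with rakicidin A and -1.57 ± 0.17 with BE-43547A1 (adjusted p = 2.37e-07 and 2.08e-07). HOXB13, a gene of the prostate and hindgut that lies apart at the 5′ end of the cluster, lay at 1.31, 0.927 and 1.03 CPM with rakicidin A and at 0.810, 0.889 and 1.02 CPM with BE-43547A1, against 2.84, 2.69 and 2.98 CPM with DMSO. HOXB13 was low in all groups and lower in both treated ones, by -1.38 ± 0.18 with rakicidin A (edgeR adjusted p = 2.36e-06) and -1.65 ± 0.17 with BE-43547A1 (adjusted p = 1.18e-07). HOXB2, a hindbrain patterning gene, had the smallest fall of the cluster, with 7.95 ± 0.556 CPM with rakicidin A, 8.65 ± 1.24 CPM with BE-43547A1 and 14.1 ± 0.235 CPM with DMSO (-0.83 ± 0.10 with rakicidin A and -0.71 ± 0.10 with BE-43547A1, adjusted p = 1.35e-06 and 4.46e-06). HOXB9 thus rose while both its neighbours in the list of tested genes, HOXB8 and HOXB13, fell. HOXB1 had 1, 3 and 0 counts over the rakicidin A, BE-43547A1 and DMSO libraries and was not tested.

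**Figure D2:**
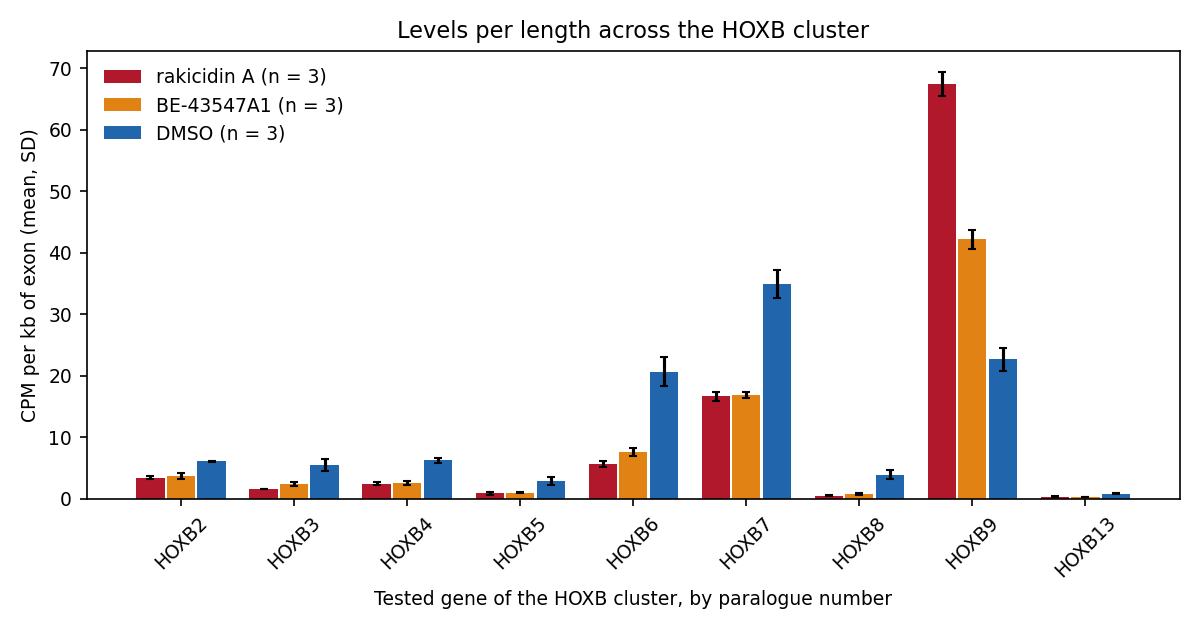
CPM per kb of exon (mean and SD of 3 libraries; exon length from GENCODE v29) for the 9 tested genes of the HOXB cluster, with bars for rakicidin A, BE-43547A1 and DMSO from left to right. HOXB7 is highest with DMSO, at 34.95, and HOXB9 is highest with rakicidin A, at 67.5, and with BE-43547A1, at 42.15.

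Since HOXB9 rose while nearly all other tested HOX genes fell, the makeup of the HOX transcripts shifted. HOXB9 took 55.2, 56.7 and 56.6% of all HOX counts in the rakicidin A libraries and 41.1, 39.9 and 42.4% in the BE-43547A1 libraries, against 15.6, 15.03 and 14.8% in the DMSO libraries. No group overlapped another. The two-sided exact permutation p was 0.1 in each comparison, the smallest that 3 libraries against 3 allow, with all 3 libraries of a compound above all of DMSO. The whole HOXB cluster held 79.6 ± 0.474% of HOX counts with rakicidin A and 73.4 ± 0.146% with BE-43547A1, against 67.5 ± 0.822% with DMSO. HOXC held 16.96 ± 0.298% and 21.8 ± 0.373% with the compounds, against 26.75 ± 0.983% with DMSO. HOXA took 3.24 ± 0.236% and 4.68 ± 0.223%, against 5.42 ± 0.170%, and HOXD under 1% in every group.

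**Figure D3:**
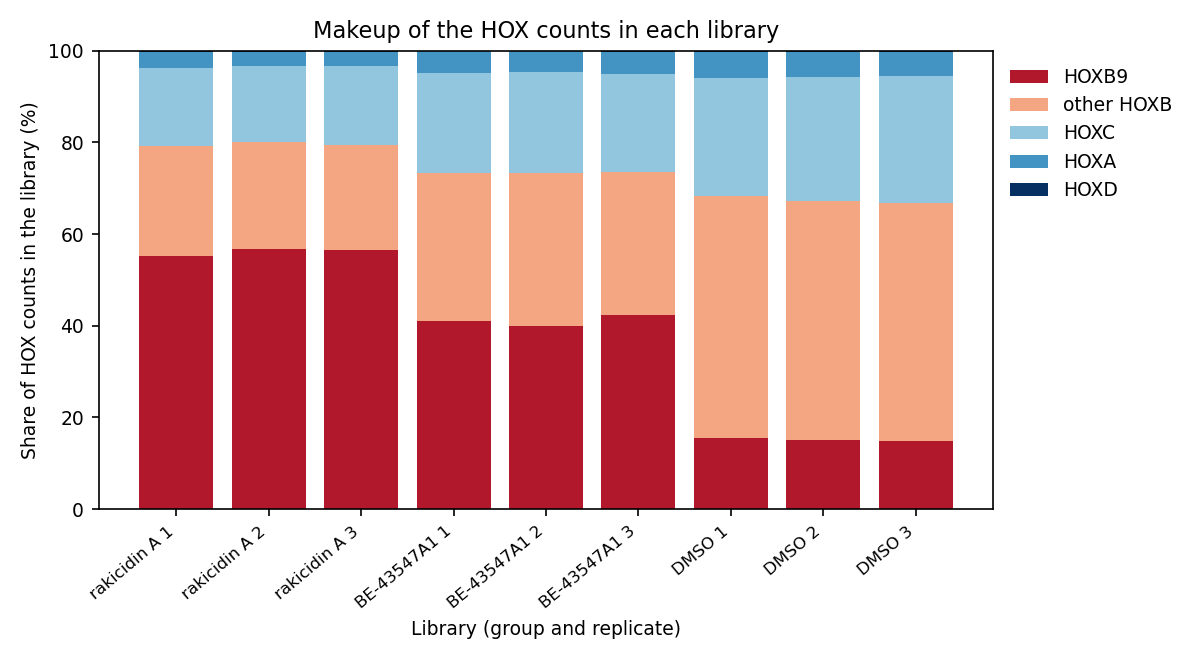
Share of the counts on all HOX genes (%) taken by HOXB9, the other HOXB genes and the HOXC, HOXA and HOXD clusters, 1 stacked bar per library, with 3 rakicidin A, 3 BE-43547A1 and 3 DMSO libraries from left to right. HOXB9 fills 55.2 to 56.7% of the rakicidin A bars and 39.9 to 42.4% of the BE-43547A1 bars, against 14.8 to 15.6% of the DMSO bars.

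HOXA genes were expressed at low levels, and 7 of them fell with both compounds. HOXA3, which the thymus and parathyroids need in the mouse, had 1.42, 1.34 and 1.25 CPM in the rakicidin A libraries and 1.10, 1.26 and 1.33 CPM in the BE-43547A1 libraries, against 3.64, 4.74 and 5.88 CPM in the DMSO libraries, a change of -1.83 ± 0.19 with rakicidin A and -1.95 ± 0.18 with BE-43547A1 (adjusted p = 9.84e-08 and 1.61e-08). HOXA2, which sets the identity of the second pharyngeal arch, had 17, 17 and 9 counts in the rakicidin A libraries and 25, 9 and 25 counts in the BE-43547A1 libraries, against 41, 50 and 63 counts in the DMSO libraries, and changed by -1.56 ± 0.31 with rakicidin A and -1.68 ± 0.29 with BE-43547A1 (adjusted p = 0.00021 and 3.88e-05). For both genes the treated groups overlapped each other and lay below DMSO.

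HOXA5, a gene of lung development, lay at 0.946, 0.608 and 0.687 CPM with rakicidin A and at 1.57, 1.85 and 1.62 CPM with BE-43547A1, against 2.93, 3.19 and 2.87 CPM with DMSO. Rakicidin A libraries were the lowest and did not overlap those with BE-43547A1, and the fall was -2.003 ± 0.20 with rakicidin A (edgeR adjusted p = 4.09e-08) and -0.83 ± 0.16 with BE-43547A1 (adjusted p = 0.000133). HOXA13, which shapes the hands, feet and urogenital tract, reached 1.09, 0.767 and 0.945 CPM after rakicidin A, 0.765, 1.14 and 1.41 CPM after BE-43547A1 and 5.17, 4.90 and 5.23 CPM after DMSO. The treated groups overlapped and the fall against DMSO, -2.45 ± 0.20 with rakicidin A (edgeR adjusted p = 3.27e-09) and -2.22 ± 0.18 with BE-43547A1 (adjusted p = 2.88e-09), was several times the spread of the libraries. HOXA6 had 1, 1 and 2 counts in the rakicidin A libraries and 0, 1 and 0 counts in the BE-43547A1 libraries, against 38, 32 and 29 counts in the DMSO libraries. It was thus close to absent with either compound. HOXA6 fell by 4.25 on the log2 scale with rakicidin A (adjusted p = 2.55e-07). Against the single count over the BE-43547A1 libraries, the DMSO level was 122 times higher, with a 95% interval of 21.5 to 4890 that covers counting error only (adjusted p = 7.86e-09).

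HOXA10, which acts in the uterus and in blood precursors, had 0, 0 and 0 counts in the rakicidin A libraries and 3, 2 and 0 counts in the BE-43547A1 libraries, against 11, 10 and 16 counts in the DMSO libraries. Taking 3 counts over the group as the floor, HOXA10 was at least 10.2-fold lower with rakicidin A than with DMSO (adjusted p = 4.36e-05), and it changed by -3.08 ± 0.58 with BE-43547A1 (adjusted p = 0.000159). HOXA11 had 5, 4 and 1 counts in the rakicidin A libraries and 8, 4 and 8 counts in the BE-43547A1 libraries, against 20, 24 and 14 counts in the DMSO libraries. Its log2 fold changes were -2.23 ± 0.46 with rakicidin A and -1.82 ± 0.39 with BE-43547A1 (adjusted p = 0.000351 and 0.000424), on counts of 1 to 24 a library. HOXA4 and HOXA9 had totals of 3 and 9 over all libraries and were not tested, and HOXA7 had no count.

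The promoter windows of HOXA13 and HOXA6 are shown because these are, among the members with exactly 1 window in the RefSeq table at hand (GRCh38.p14), those that fell with the smallest p. HOXB9 and HOXB6, the members with the smallest p in each direction, have no entry in it. Each window runs 5′ to 3′ from 250 bases before to 50 after the start, in capitals where CCAAT or GGGCGG occurs on either strand, and occurrences may overlap or adjoin. They lie on the minus strand at chr7:27200042-27200341 and chr7:27147725-27148024.
HOXA13: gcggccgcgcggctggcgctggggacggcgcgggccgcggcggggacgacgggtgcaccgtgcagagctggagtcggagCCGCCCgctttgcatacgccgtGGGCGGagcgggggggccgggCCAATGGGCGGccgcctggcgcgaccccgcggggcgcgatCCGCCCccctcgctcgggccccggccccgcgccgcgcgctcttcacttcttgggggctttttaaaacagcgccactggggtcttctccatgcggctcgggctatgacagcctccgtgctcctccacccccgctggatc
HOXA6: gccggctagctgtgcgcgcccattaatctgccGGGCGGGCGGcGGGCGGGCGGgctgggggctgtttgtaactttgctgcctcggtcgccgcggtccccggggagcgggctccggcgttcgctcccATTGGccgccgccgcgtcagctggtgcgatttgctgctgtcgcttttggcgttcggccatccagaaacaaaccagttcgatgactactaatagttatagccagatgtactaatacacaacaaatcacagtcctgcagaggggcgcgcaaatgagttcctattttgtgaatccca
Both windows hold GGGCGG 4 times and CCAAT once. Of 35116 RefSeq promoter windows of this length, 15786 held GGGCGG and 34.6% held CCAAT. Of the 20 members with a window, 8 were tested, and their 15 windows held GGGCGG in 7 cases and CCAAT in 8. Many of these windows are alternative starts of HOXA3, which gave most of the GGGCGG cases, so windows are not separate genes. TATAAA was in 3 of these 15 windows (11.5% of all windows), CACGTG in 2 (7.26%), and TGACGTCA (1.85%) and AGGTCA (13.8%) in 0. A match is a description of these letters, not a binding site.

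**Figure D4:**
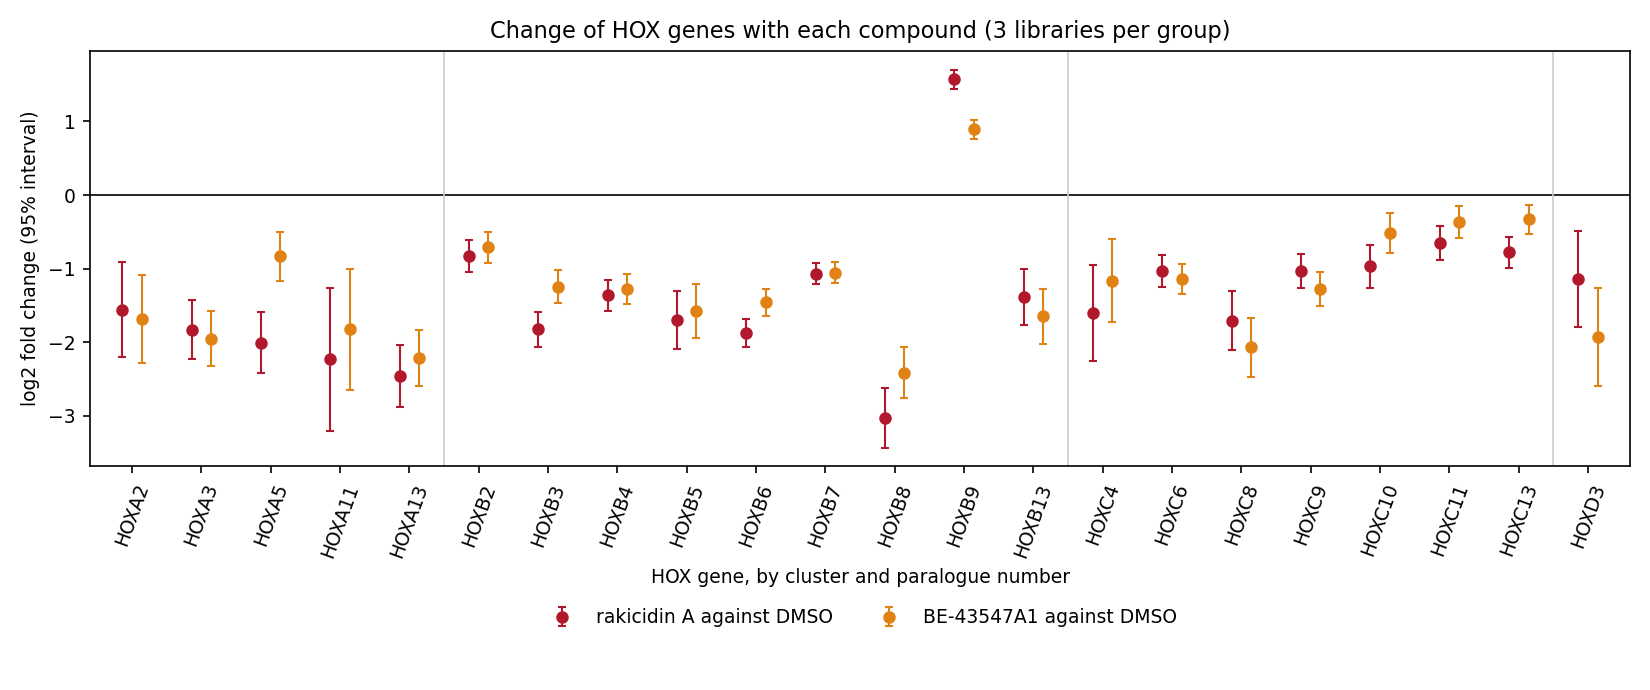
Log2 fold change against DMSO with its 95% interval (edgeR, 3 libraries per group) for 22 tested HOX genes, rakicidin A left and BE-43547A1 right of each pair; HOXA6 and HOXA10 are not drawn because a treated group held 3 counts or fewer. The points of HOXB9 lie above 0 and all others drawn below it, and the lowest are those of HOXB8, at -3.02 and -2.41.

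All 7 tested HOXC genes fell with both compounds. HOXC9, the most abundant of them per kb and a paralogue of HOXB9, had 19.2, 17.3 and 17.2 CPM in the rakicidin A libraries and 12.3, 16.1 and 16.7 CPM in the BE-43547A1 libraries, against 30.6, 38.4 and 40.4 CPM in the DMSO libraries. It moved against HOXB9, by -1.03 ± 0.11 with rakicidin A (edgeR adjusted p = 1.73e-07) and -1.28 ± 0.11 with BE-43547A1 (adjusted p = 6.01e-09), and treated and DMSO libraries did not overlap. HOXC8 lay at 1.71, 2.21 and 2.32 CPM with rakicidin A and at 1.46, 1.80 and 1.57 CPM with BE-43547A1, against 5.32, 5.88 and 9.04 CPM with DMSO. HOXC8 fell, by -1.70 ± 0.19 with rakicidin A (edgeR adjusted p = 3.37e-07) and -2.07 ± 0.19 with BE-43547A1 (adjusted p = 1.44e-08), and without the high DMSO replicate 3 these values were -1.43 and -1.80. HOXC6 reached 6.26, 6.20 and 6.27 CPM after rakicidin A, 5.62, 5.68 and 6.01 CPM after BE-43547A1 and 11.6, 12.00 and 14.5 CPM after DMSO. The 3 rakicidin A values of HOXC6 were nearly equal and its fall was -1.03 ± 0.10 with rakicidin A (edgeR adjusted p = 6.29e-08) and -1.14 ± 0.10 with BE-43547A1 (adjusted p = 7.89e-09).

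HOXC10 had 12.1, 12.4 and 11.3 CPM in the rakicidin A libraries and 15.7, 17.7 and 15.8 CPM in the BE-43547A1 libraries, against 19.2, 19.99 and 30.8 CPM in the DMSO libraries. DMSO replicate 3 stood far above the other DMSO libraries in this gene. Its fall was -0.97 ± 0.14 with rakicidin A (edgeR adjusted p = 5.29e-06) and -0.51 ± 0.13 with BE-43547A1 (adjusted p = 0.00169), and without that library it was -0.71 (adjusted p = 1.84e-07) and -0.27 (adjusted p = 0.00516), so the value with BE-43547A1 moved by over 1.5 times on the log2 scale. HOXC11 averaged 5.67 ± 0.410 CPM with rakicidin A, 6.92 ± 0.592 CPM with BE-43547A1 and 8.93 ± 0.824 CPM with DMSO, and HOXC13, which the hair follicle and nail need, 8.36 ± 0.390 CPM with rakicidin A, 11.4 ± 1.27 CPM with BE-43547A1 and 14.3 ± 1.14 CPM with DMSO. Both genes lie at the 5′ end. With BE-43547A1 they changed by -0.36 ± 0.10 and -0.33 ± 0.09 (adjusted p = 0.00434 and 0.00471), and changed by -0.65 ± 0.11 and -0.78 ± 0.10 with rakicidin A (adjusted p = 4.2e-05 and 1.68e-06). With library totals HOXC11 changed by -0.60 with BE-43547A1 and -1.01 with rakicidin A, and HOXC13 by -0.56 with BE-43547A1, each over 1.5 times the value with TMM. HOXC4 had 8, 7 and 7 counts in the rakicidin A libraries and 19, 13 and 13 counts in the BE-43547A1 libraries, against 29, 21 and 32 counts in the DMSO libraries, a change of -1.60 ± 0.31 with rakicidin A and -1.17 ± 0.27 with BE-43547A1 (adjusted p = 0.000193 and 0.00079). HOXC5 had 4, 10 and 27 counts over the rakicidin A, BE-43547A1 and DMSO libraries, HOXC12 had 5, 5 and 27, and neither was tested. The second HOXC4 entry had no count.

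The HOXD cluster was almost silent. HOXD3, its only tested gene, had 8, 13 and 7 counts in the rakicidin A libraries and 9, 6 and 9 counts in the BE-43547A1 libraries, against 20, 24 and 31 counts in the DMSO libraries. HOXD3 fell, by -1.14 ± 0.31 with rakicidin A (edgeR adjusted p = 0.00368) and -1.93 ± 0.32 with BE-43547A1 (adjusted p = 2.61e-05). HOXD1, HOXD4, HOXD8, HOXD9, HOXD10, HOXD11 and HOXD12 had totals of 1 to 36 counts over the 9 libraries, too few to be tested, and HOXD13 had none.

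In DMSO libraries the 5 highest genes per kb of exon were HOXB7 (34.95 ± 2.29 CPM per kb), HOXB9 (22.7 ± 1.88), HOXC9 (21.7 ± 3.08), HOXB6 (20.6 ± 2.37) and HOXC10 (10.01 ± 2.78). HOXB9, HOXC9 and HOXB6 lay within their spread of each other. With either compound HOXB9 was first and HOXB7 second. Levels near shared sequence are less certain. Exons were compared with exons of other genes in GENCODE v29, which is not the annotation behind the counts. No exon base of HOXB7, HOXB8, HOXB9, HOXB13, HOXA2, HOXA5, HOXC8 or HOXC11 lies in an exon of another gene. The share was 74.1% for HOXD3, 40.1% for HOXA6, 32.9% for HOXB6, 31.1% for HOXA11, 26.3% for HOXA10 and 7.10 to 17.9% for HOXA3, HOXB3, HOXB4, HOXC4, HOXC6, HOXC9, HOXC10 and HOXC13. The sources used here do not say whether counting used strand, so reads of these genes and of antisense or overlapping neighbours may not be told apart.

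The next question was where the compounds differed. Of the 25 genes, 1 was higher and 7 were lower with rakicidin A than with BE-43547A1, where 24.1% and 22.5% of all tested features were called, or 46.6% in all. At least 2-fold, 0 were higher (2.16% of features) and 1, HOXA5, was lower (7.53%). HOXB9 was higher with rakicidin A, at 174.1 ± 4.94 CPM with rakicidin A and 108.8 ± 4.13 CPM with BE-43547A1, which is 0.68 ± 0.06 on the log2 scale (edgeR adjusted p = 6.57e-08, higher in 3 of 3 libraries). HOXA5 was lower, at 0.747 ± 0.177 CPM with rakicidin A and 1.68 ± 0.149 CPM with BE-43547A1 (-1.17 ± 0.21, adjusted p = 0.000133). HOXB3 (-0.58 ± 0.12, adjusted p = 0.000492), HOXB6 (-0.41 ± 0.09, 0.00131) and HOXC13 (-0.45 ± 0.10, 0.00116) were lower as well. For these 5 genes the libraries of the compounds did not overlap and each alternative fit gave the same call. HOXB8 (-0.61 ± 0.23, adjusted p = 0.0374), HOXC10 (-0.45 ± 0.14, 0.0113) and HOXC11 (-0.29 ± 0.11, 0.0389) were lower too, but did not pass under some alternatives. Without rakicidin A replicate 3 or BE-43547A1 replicate 2, 4 genes passed as lower.

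For the other 17 genes no difference between the compounds passed, which does not show that they act alike. In 12 of them the 95% interval of the log2 difference lay within 1 either way. It was -0.16 to 0.13 for HOXB7, -0.31 to 0.14 for HOXB4 and -0.34 to 0.11 for HOXB2. For HOXD3 the interval was -0.01 to 1.60 and for HOXA11 -1.61 to 0.80, too wide to place these genes.

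**Figure D5:**
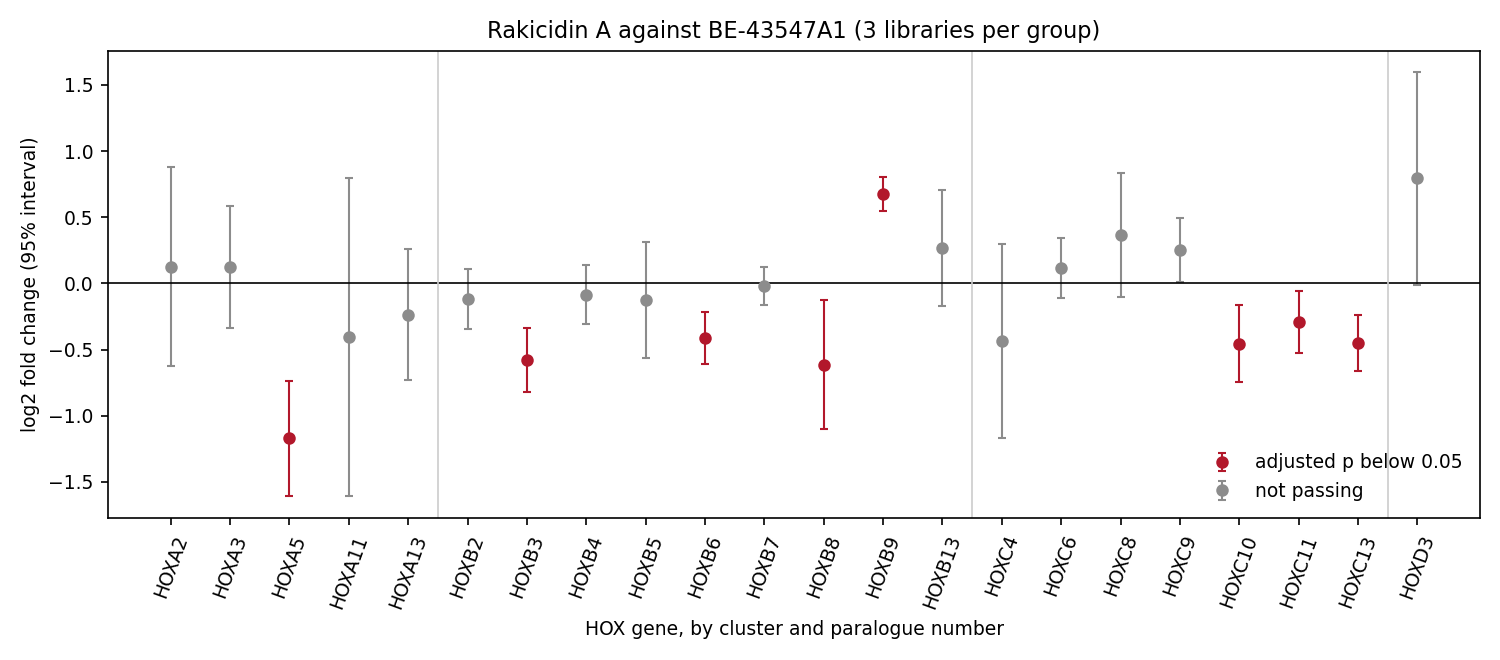
Log2 fold change of rakicidin A against BE-43547A1 with its 95% interval (edgeR, 3 libraries per group) for 22 tested HOX genes, red where the adjusted p is below 0.05; HOXA6 and HOXA10 are not drawn because a group held 3 counts or fewer. HOXB9, at 0.68, is the red point above 0, and 7 red points lie below it, the lowest being HOXA5 at -1.17.

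Most noncoding transcripts of the clusters that could be tested were lower as well. Of 23 listed ones found in the table, 11 were tested. The counts in this and the following lists stand beside 31.9% higher and 32.7% lower of all tested features with rakicidin A, and 35.3% and 35.1% with BE-43547A1. Counts given with library totals stand beside 20% higher and 51% lower of all features with rakicidin A, and 26.6% and 46.7% with BE-43547A1. No list was tested against these shares. With rakicidin A 0 rose and 9 fell, and with BE-43547A1 0 rose and 8 fell (medians -1.43 and -0.75). HOTAIR, an antisense RNA between HOXC11 and HOXC12 that is linked to Polycomb, had 5.20, 4.12 and 3.56 CPM in the rakicidin A libraries and 4.12, 4.17 and 3.56 CPM in the BE-43547A1 libraries, against 22.9, 24.5 and 24.7 CPM in the DMSO libraries. Treated libraries were several times lower than DMSO and the compounds overlapped, at -2.48 ± 0.11 with rakicidin A (edgeR adjusted p = 6.56e-13) and -2.60 ± 0.11 with BE-43547A1 (adjusted p = 1.82e-13). HOXC-AS3 averaged 1.11 ± 0.0152 CPM with rakicidin A, 2.04 ± 0.472 CPM with BE-43547A1 and 5.52 ± 0.756 CPM with DMSO (-2.31 ± 0.19 with rakicidin A and -1.44 ± 0.16 with BE-43547A1, adjusted p = 2.84e-09 and 1.87e-07). HOXC-AS5 averaged 2.91 ± 0.117 CPM with rakicidin A, 2.90 ± 0.158 CPM with BE-43547A1 and 8.90 ± 0.209 CPM with DMSO (-1.61 ± 0.11 with rakicidin A and -1.61 ± 0.11 with BE-43547A1, adjusted p = 3.54e-10 and 1.48e-10). An entry with the symbol MIR10A changed by -1.76 ± 0.19 with rakicidin A and -1.65 ± 0.17 with BE-43547A1 (adjusted p = 1.22e-07 and 7.96e-08). Its identifier belongs in GENCODE v29 to the longer noncoding gene AC103702.1 in the HOXB cluster, so it does not measure the miRNA. HOTAIRM1, a noncoding RNA of the HOXA cluster, averaged 3.07 ± 0.210 CPM with rakicidin A, 2.81 ± 0.174 CPM with BE-43547A1 and 2.61 ± 0.201 CPM with DMSO and did not pass (adjusted p = 0.148 and 0.498), nor did HOXD-AS2. HOXD-AS1 did not pass with BE-43547A1. HOTAIRM1 and HOXD-AS2, and HOXD-AS1 with that compound, were named after their values were seen.

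Of 13 genes next to the clusters 10 were tested, 7 fell and 1 rose with rakicidin A, and 7 fell and 0 rose with BE-43547A1 (medians -0.46 and -0.40). SMUG1, a uracil DNA glycosylase beside HOXC4, changed by -1.28 ± 0.11 with rakicidin A and -1.15 ± 0.11 with BE-43547A1 (adjusted p = 1.07e-08 and 2.1e-08). ATP5G2, a subunit of the mitochondrial ATP synthase, changed by -0.69 ± 0.08 with rakicidin A and -0.57 ± 0.08 with BE-43547A1, MTX2, a mitochondrial outer membrane protein, by -0.44 ± 0.06 with rakicidin A and -0.51 ± 0.06 with BE-43547A1, and KIAA1715, which shapes ER junctions, by -0.61 ± 0.06 with rakicidin A and -0.80 ± 0.06 with BE-43547A1 (largest adjusted p of the 3 genes, 7.61e-06). TTLL6, near HOXB13, was the 1 that rose, with rakicidin A (1.71 ± 0.44, adjusted p = 0.00223), and was named after its values were seen.

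Cofactors and regulators did not share one direction. Of 7 tested TALE cofactors of HOX proteins, 1 rose and 2 fell with rakicidin A and 2 rose and 2 fell with BE-43547A1. With library totals 1 rose and 5 fell, and 1 rose and 3 fell. PBX4 was higher with both (0.72 ± 0.13 with rakicidin A and 0.83 ± 0.12 with BE-43547A1, adjusted p = 8.1e-05 and 8.79e-06), PBX2 with BE-43547A1 (0.33 ± 0.11, adjusted p = 0.0122), and MEIS1 (-0.76 ± 0.26 with rakicidin A and -1.31 ± 0.26 with BE-43547A1, adjusted p = 0.0181 and 0.000208) and MEIS2 (-0.53 ± 0.07 with rakicidin A and -0.22 ± 0.07 with BE-43547A1, adjusted p = 4.87e-06 and 0.0114) were lower. PBX2 was named after its values were seen, and with library totals PBX4 was the 1 that passed as higher. The MEIS1 call with rakicidin A was lost without rakicidin A replicate 1 or 2 or DMSO replicate 1 (-0.72, -0.73 and -0.43, adjusted p = 0.0538, 0.0549 and 0.17) and in DESeq2 (0.0534). MEIS2 with BE-43547A1 was lost without BE-43547A1 replicate 1 or 2 or DMSO replicate 2 (-0.19, -0.20 and -0.18, adjusted p = 0.0525, 0.0523 and 0.0529) and without the filter (0.0521). PKNOX1 did not pass (-0.16 ± 0.08 with rakicidin A and 0.16 ± 0.08 with BE-43547A1, adjusted p = 0.078 and 0.0686), and with library totals its value was -0.52 and -0.08.

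The 26 Polycomb genes split into 10 higher and 10 lower with rakicidin A, and 8 higher and 13 lower with BE-43547A1. The rakicidin A counts lie near the shares of all features. With library totals they were 5 higher and 17 lower, and 5 and 15. PHF1, a PRC2 accessory protein (1.497 ± 0.07 with rakicidin A and 1.63 ± 0.07 with BE-43547A1), and RING1, a ubiquitin ligase of PRC1 (0.89 ± 0.09 with rakicidin A and 1.27 ± 0.08 with BE-43547A1), rose, and PCGF3, a PRC1 subunit, fell (-1.20 ± 0.07 with rakicidin A and -0.91 ± 0.06 with BE-43547A1), with adjusted p of at most 3.78e-08. Of 14 Trithorax and activator genes, 7 rose and 2 fell with rakicidin A and 6 rose and 5 fell with BE-43547A1. With library totals these were 5 and 7, and 4 and 8. KDM6A and KDM6B are demethylases that remove the Polycomb mark. KDM6A lay at 187.3, 199.6 and 198.1 CPM with rakicidin A and at 136.5, 130.0 and 138.9 CPM with BE-43547A1, against 34.2, 32.1 and 35.5 CPM with DMSO. KDM6B reached 9.06, 11.7 and 8.98 CPM after rakicidin A, 25.7, 28.8 and 23.1 CPM after BE-43547A1 and 1.25, 1.36 and 1.99 CPM after DMSO. Both were higher in every treated library, KDM6A by 2.52 ± 0.06 with rakicidin A (edgeR adjusted p = 7.37e-17) and 1.99 ± 0.06 with BE-43547A1 (adjusted p = 1.77e-15) and KDM6B by 2.69 ± 0.16 with rakicidin A (edgeR adjusted p = 4.61e-11) and 4.06 ± 0.15 with BE-43547A1 (adjusted p = 3.25e-14). KMT2C, a methyltransferase of active enhancers (0.78 ± 0.07 with rakicidin A and 0.67 ± 0.07 with BE-43547A1, adjusted p = 1.84e-08 and 1.28e-07), and DOT1L, a methyltransferase of transcribed genes (1.15 ± 0.11 with rakicidin A and 1.61 ± 0.11 with BE-43547A1, adjusted p = 3.93e-08 and 2.69e-10), were also higher.

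Retinoic acid switches on anterior HOX genes in embryos. Of 11 tested genes of its synthesis, breakdown and receptors, 8 fell and 1 rose with rakicidin A, and 6 fell and 1 rose with BE-43547A1. DHRS3, which reduces retinal and is itself a retinoic acid target, averaged 9.54 ± 0.856 CPM with rakicidin A, 14.4 ± 1.04 CPM with BE-43547A1 and 37.4 ± 2.08 CPM with DMSO (-1.97 ± 0.09 with rakicidin A and -1.37 ± 0.08 with BE-43547A1, adjusted p = 3.44e-13 and 2.45e-11). RXRA, a receptor subunit, changed by -1.16 ± 0.07 with rakicidin A and -1.01 ± 0.07 with BE-43547A1 (adjusted p = 1.11e-10 and 4.47e-10) and RDH10, which makes retinal, by -0.66 ± 0.08 with rakicidin A and -0.54 ± 0.08 with BE-43547A1 (adjusted p = 1.02e-06 and 6.14e-06). RXRB was the 1 that rose (1.03 ± 0.08 with rakicidin A and 0.64 ± 0.08 with BE-43547A1, adjusted p = 1.63e-09 and 8.28e-07). Among ParaHox genes CDX2, an intestinal factor that activates HOX genes in mouse embryos, was the 1 tested, and it reached 1.46, 1.02 and 0.945 CPM after rakicidin A, 0.675, 0.791 and 0.680 CPM after BE-43547A1 and 3.33, 3.60 and 3.35 CPM after DMSO. It fell with both compounds, by -1.58 ± 0.18 with rakicidin A (edgeR adjusted p = 3.59e-07) and -2.26 ± 0.18 with BE-43547A1 (adjusted p = 2.39e-09).

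Homeobox genes outside the clusters were spread over both directions, with shares that for higher calls lie near those of all features. Of 45 tested of 86 listed, 14 rose and 20 fell with rakicidin A and 17 rose and 21 fell with BE-43547A1, with medians of -0.23 and -0.09. With library totals 9 rose and 27 fell, and 15 and 24. SIX4 (1.46 ± 0.07 with rakicidin A and 1.54 ± 0.07 with BE-43547A1), GBX2 (1.62 ± 0.09 with rakicidin A and 1.24 ± 0.09 with BE-43547A1) and ADNP (1.66 ± 0.06 with rakicidin A and 2.001 ± 0.06 with BE-43547A1) were higher and ONECUT3 was lower (-2.27 ± 0.13 with rakicidin A and -1.62 ± 0.12 with BE-43547A1), with adjusted p of at most 5.69e-10. Whether the share of HOX genes that fell differs from that of these genes was not tested.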

How the data were processed

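Total RNA of PANC-1 cells was read in 9 libraries with paired reads of 76 bases on an Illumina NextSeq, per the labels. TopHat2 and HTSeq were used and GRCh37 and hg19 are named, per the submitters' processing notes. Which step used which, the annotation and the strand setting are not stated there. The authors deposited counts per feature and library, with no normalization.

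The 5 summary entries were set aside. They held reads on no feature, ambiguous reads (2.65 to 2.94% of counts plus these entries) and reads placed more than once. The fits used edgeR 4.0.16 under R 4.3.3: filterByExpr, TMM (factors 0.890 to 0.898 with rakicidin A, 0.963 to 0.989 with BE-43547A1 and 1.145 to 1.153 with DMSO) and a quasi-likelihood fit with 1 mean per group over 9 libraries (6 residual degrees of freedom). Benjamini-Hochberg adjustment ran over 22353 features, with a threshold of 0.05. Each standard error was the size of the log2 fold change divided by the root of its F statistic. Intervals are at 95%, and those on counts cover counting error only, since the labels mention no molecular identifiers. Exon lengths come from GENCODE v29 (GRCh38) by identifier. Levels per kb were checked with the longest transcript and with unshared exon bases, the second chosen after seeing the data. Libraries of 1 group differed by more than sampling noise.

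The members and gene lists were chosen with earlier results of these data known. Values in every library are given for the 20 members with an adjusted p below 0.05 and a log2 fold change of at least 1 either way against DMSO, and for the 5 highest per kb. Other tested members are given by mean and SD; 1 member and 1 list gene are not reported here, but are in the counts. For each list, up to 4 genes were named, ranked by both compounds' unadjusted p multiplied together. Alternatives were RLE size factors, total counts, no filter, DESeq2 1.42.0, limma-voom (limma 3.58.1), 6 libraries, a replicate block, GENCODE entries alone, no mitochondrial or ribosomal RNA, a 2-fold rule, thinning to 26203326 counts, and each library left out. The fit was also run on simulated counts in which few genes changed, in 1 group. Against DMSO most features here were called, so that run does not check the scaling between groups. Figures were drawn with matplotlib 3.10.9.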

Additional observations from a re-analysis of the deposited data

How the results depend on the processing

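The counts of 23 lower and 2 higher HOX genes against DMSO were the same for both compounds under each alternative, within 1.5 times, with these exceptions. With library totals 1 gene, HOXB9, was higher with rakicidin A. Under the 2-fold rule 1 was higher with rakicidin A and 0 with BE-43547A1. With 1 library left out, 23 were lower and 2 higher in both comparisons. Rakicidin A against BE-43547A1 was less firm. There 2 genes were higher, against 1, without the filter, with limma-voom, in the 6 libraries alone and with the replicate block, with HOXC9 as the added gene in the unfiltered, 6-library and blocked fits. Under the 2-fold rule 0 were higher and 1 was lower, against 7. With 1 library left out, 1 to 2 were higher and 4 to 8 lower; the 2 came without BE-43547A1 replicate 3, DMSO replicate 1 or DMSO replicate 3, when HOXC9 passed too, and the 4 without rakicidin A replicate 3 or BE-43547A1 replicate 2. HOXB8 and HOXC11 lost their call in 6 alternatives each and HOXC10 in 2. PKNOX1 with BE-43547A1 turned to -0.0788 on the log2 scale with library totals (adjusted p = 0.36). Library totals also moved PBX4, RING1, RDH10, ATP5G2, MTX2 and KIAA1715 with rakicidin A, and MEIS2, KMT2C and RXRB with both compounds, by over 1.5 times on the log2 scale, with the calls unchanged. Of 960 counts of the other lists, 90 moved by over 1.5 times, 33 of them under the 2-fold rule, 12 with library totals, 30 with 1 library left out and 15 otherwise. The cause of these shifts was not tested. By the longest transcript or by unshared exon bases HOXB6 took place 2 and HOXB9 place 4 in DMSO. No pairing by replicate number was evident, though 3 libraries per group cannot exclude it. Deviations of same-numbered libraries correlated at -0.0566 to 0.122, with 1 of 9 pairs over 0.1, and the replicate block changed no HOX call against DMSO. Tested members under about 0.5 CPM with a compound rest on few counts. Against DMSO their direction held in each alternative that tested them, but the size is poorly fixed. Between the compounds, and for untested members, the direction is not fixed either.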
